A study of Rattus norvegicus with 18 samples.

Results

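Of 12749 genes tested in the extensor digitorum longus of 18 female rats, 7 are the slow sarcomere genes described here: Myh7, Myl2, Myl3, Tnni1, Tnnc1, Tnnt1 and Tpm3. They were chosen by name, as the genes of the slow myosin, its light chains, the slow troponins and slow tropomyosin. Earlier results of these data were known when they were chosen. Of 20917 probe sets, 8 carried 1 of these symbols alone. Tpm3 had 2 of them, and the probe set of highest mean stood for each gene. All 7 genes passed the filter on low values.

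The animals were adult Sprague-Dawley females of an F2 generation. A group name gives the F0 grandfather's diet first and the female's own diet after it. The high-fat/high-fat and high-fat/chow groups held 4 females each, and the chow/high-fat and chow/chow groups held 5 each. Own diets lasted 12 weeks, and the high-fat diet drew 42/45% of its energy from fat. Every array carried 200 ng of total RNA of a whole muscle, from a separate animal as far as the titles show, so the p-values measure the spread between these animals. The labels do not say how many grandfathers founded a lineage or whether females were sisters, and relatives within a lineage would make the p-values of the grandfather's diet too small.

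The extensor digitorum longus is a fast muscle of the hindlimb, in which slow fibres are a minority. A slow fibre builds its sarcomere from its own set of proteins: a slow myosin heavy chain with its light chains on the thick filament, and slow troponins and tropomyosin on the thin filament. Motor nerve activity, calcineurin signalling and the coactivator Ppargc1a are known to favour this set, and Sox6 is known to repress it. In whole-muscle RNA, fewer slow fibres and less slow transcript per fibre cannot be told apart.

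The arrays fitted their label as fast skeletal muscle. Acta1, the skeletal actin, had deposited intensities between 8052 and 10432, and Pvalb, the calcium buffer of fast fibres, between 4525 and 6061. Actn3, the fast Z-disc actinin, lay between 7005 and 9365. Myh4, Myh1 and Mylpf, also fast-fibre markers, were not analysed here, because no probe set carried their symbol alone. Deposited array medians ran from 55.02 to 73.97, with the lowest 2 in chow/high-fat replicates 4 and 5. Comparisons therefore used log2(intensity + 16) after quantile normalization, with limma adjusted p-values (Benjamini-Hochberg, over 12749 genes) at a threshold of 0.05.

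Of the 7 members, 5 had a window around an annotated transcript start (250 bases before to 50 after) in the RefSeq table for GRCr8. The annotated start behind the Myh7 window lies 1657 bases inside the gene's outer end, and that window is not shown. A pair of windows is shown because Tnnt1 followed Myh7 more closely than any other gene tested, while Myl3, a light chain, followed it less closely. Capitals mark the TATA box (TATAAA), the core of the MCAT motif (CATTCC) and the CArG box. These were searched on both strands, together with the MEF2 motif, the E-box (CANNTG) and the CACC box (CACCC), which are left in lower case. The first line is chr1:78348785-78349084, plus strand, and the second is chr8:119616844-119617143, plus strand.
Tnnt1: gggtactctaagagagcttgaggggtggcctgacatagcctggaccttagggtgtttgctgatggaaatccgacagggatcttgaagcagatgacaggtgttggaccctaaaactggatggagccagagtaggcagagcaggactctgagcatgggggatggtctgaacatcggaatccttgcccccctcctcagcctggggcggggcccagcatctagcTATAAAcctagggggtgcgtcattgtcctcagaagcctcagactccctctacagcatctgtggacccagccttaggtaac
Myl3: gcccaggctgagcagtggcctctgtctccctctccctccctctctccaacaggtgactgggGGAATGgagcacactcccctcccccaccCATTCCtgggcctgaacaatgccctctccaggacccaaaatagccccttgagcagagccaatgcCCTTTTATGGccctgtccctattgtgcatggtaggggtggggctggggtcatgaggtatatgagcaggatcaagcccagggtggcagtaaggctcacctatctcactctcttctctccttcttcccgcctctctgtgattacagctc
The Tnnt1 window held TATAAA from position -30 relative to the annotated start. The Myl3 window held CATTCC once on each strand, from positions -189 and -161, and a CArG box from -97. A CACC box from -165 shares 1 base with the MCAT core at -161. None of the windows of the 5 members held the MEF2 motif. Of 33469 windows of that length, 14.2% held TATAAA, 14.2% held CATTCC, 1.64% a CArG box and 1.87% the MEF2 motif, 72.1% held CANNTG and 54.9% CACCC. These matches describe the letters only.

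Slow sarcomere transcripts differed several-fold between females of the same group. Myh7 encodes the slow myosin heavy chain, the motor of slow fibres. Myh7 had deposited intensities of 2432, 2763, 2424 and 774 in high-fat/high-fat females, against 911, 2081, 480.4 and 1117 in high-fat/chow females. In the chow lineage its intensities were 3485, 901, 2349, 1712 and 1402 in chow/high-fat females, against 3222, 2205, 3201, 2045 and 2081 in chow/chow females. The high-fat/chow group was low in all but replicate 2, and the other groups except chow/chow held 1 low animal each. Its highest intensity was 3.57 times its lowest within the high-fat/high-fat group, 4.33 times within high-fat/chow, 3.87 times within chow/high-fat and 1.58 times within chow/chow.

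The troponins of the slow thin filament had the same low animals. Tnnt1 binds troponin to tropomyosin. Tnnt1 had deposited intensities of 1337, 1455, 1302 and 298 in high-fat/high-fat females, against 502, 1307, 246 and 543 in high-fat/chow females. The values of Tnnt1 were 1896, 462, 1254, 1047 and 777 in chow/high-fat females, against 1829, 1205, 1817, 1024 and 1192 in chow/chow females. Its highest intensity was 4.88 times its lowest among high-fat/high-fat females and 5.31 times among high-fat/chow females. Tnnc1 is the calcium sensor, shared with heart muscle. Tnnc1 had deposited intensities of 887, 954, 710.2 and 144 in high-fat/high-fat females, against 299, 761, 171.1 and 365 in high-fat/chow females. Chow/high-fat females had Tnnc1 intensities of 1252, 275, 897, 573 and 522, against 1158, 746, 1248, 636 and 914 in chow/chow females. Its highest intensity was 6.62 times its lowest among high-fat/high-fat females, the widest ratio of any member in any group. Tnni1 is the inhibitory subunit. Tnni1 had deposited intensities of 1414, 1819, 1283 and 428 in high-fat/high-fat females, against 373, 1211, 385 and 601 in high-fat/chow females. In the chow lineage its intensities were 1853, 493, 1215, 801 and 662 in chow/high-fat females, against 1817, 995, 1506, 881 and 1132 in chow/chow females. Every group overlapped every other for each of these 3 genes.

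Tpm3 encodes slow tropomyosin, and other transcripts of the gene serve cells outside muscle. Tpm3 had deposited intensities of 1658, 1756, 1714 and 642 in high-fat/high-fat females, against 929, 1669.9, 619 and 765 in high-fat/chow females. The values of Tpm3 were 2069.8, 804, 1639.8, 1276 and 1084 in chow/high-fat females, against 2101, 1483, 2235, 1506 and 1204 in chow/chow females. The second Tpm3 probe set varied less. Its intensities ranged from 296 to 409 in high-fat/high-fat females, from 307 to 469 in high-fat/chow, from 233 to 382 in chow/high-fat and from 306 to 404 in chow/chow females. After normalization its means were 8.41, 8.63, 8.39 and 8.49 log2 in the same order. Its mean was highest in the high-fat/chow group, where that of the first probe set was lowest (9.91 log2). Which transcripts each probe set reads is not given in the files.

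The light chains stabilise the lever arm of slow myosin, and both are also made in the heart ventricle. Myl2 is the regulatory light chain. Myl2 had deposited intensities of 1247, 1339, 999 and 349.8 in high-fat/high-fat females, against 269, 1096, 588 and 693 in high-fat/chow females. Chow/high-fat females had Myl2 intensities of 1194, 363, 961, 572 and 549, against 1275, 956, 1206, 610.4 and 824 in chow/chow females. Its lowest animal was high-fat/chow replicate 1, not replicate 3. Myl3 is the essential light chain. Myl3 had deposited intensities of 3156, 4230.1, 2924 and 1110.2 in high-fat/high-fat females, against 1309.8, 3536, 1984 and 1895 in high-fat/chow females. In the chow lineage its intensities were 4087, 1376, 2973, 2151 and 1611 in chow/high-fat females, against 4415, 2589, 3448, 2182 and 2588 in chow/chow females. Its lowest animal was high-fat/high-fat replicate 4.

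**Figure D1:**
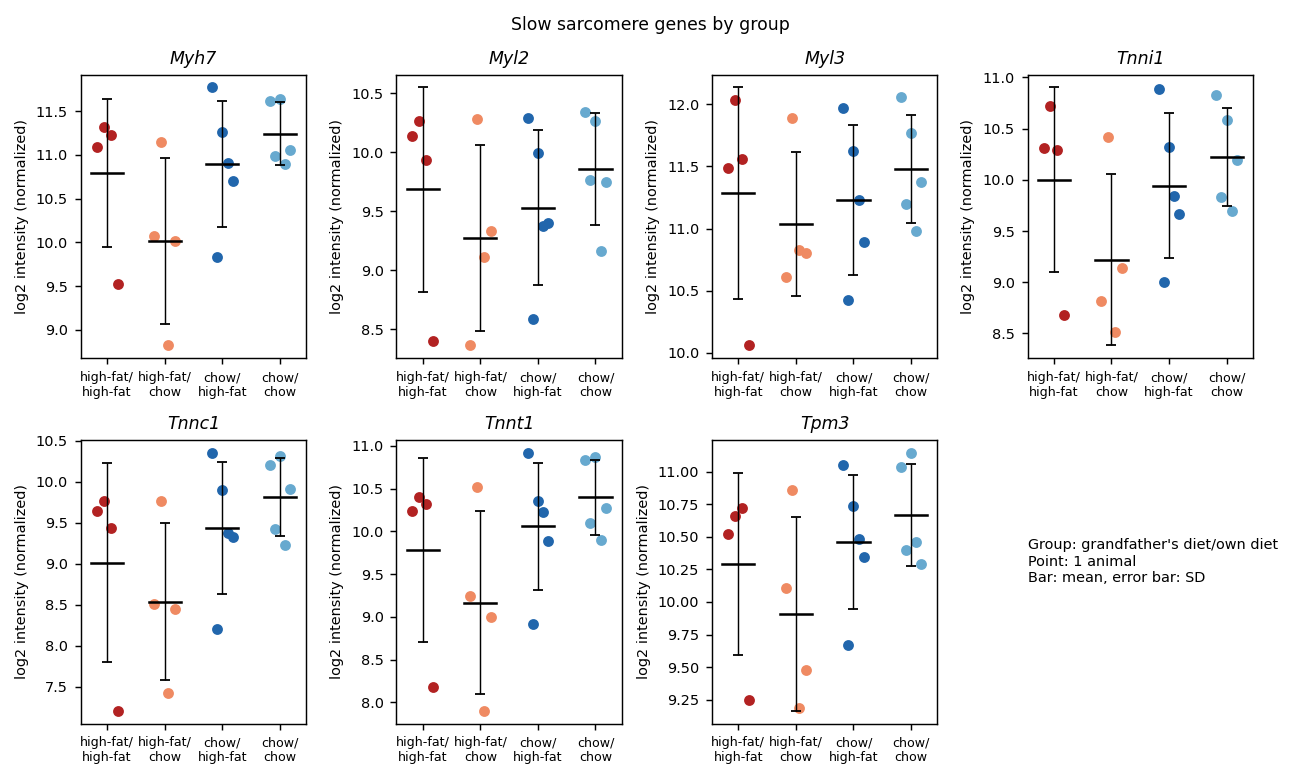
Normalized log2 intensity (y axis) of each of the 7 members by group, named by the grandfather's diet and then the female's own diet. Points are animals (4, 4, 5 and 5 from left to right), bars are means and error bars are SDs. The high-fat/chow group has 3 of 4 animals at the low end for most members, and every group overlaps the others.

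In 13 of 18 animals all members lay on the same side of their means. Each gene was centred on its mean over the 18 animals. In 8 animals all 7 members lay above their means, in 5 animals all lay below, and 5 animals were mixed. The 5 low animals were high-fat/high-fat replicate 4 (mean deviation -1.39 log2), high-fat/chow replicates 3 (-1.32), 1 (-0.75) and 4 (-0.68), and chow/high-fat replicate 2 (-0.91). The highest mean deviations were 0.89 in chow/high-fat replicate 1, and 0.84 and 0.80 in chow/chow replicates 1 and 3. No chow/chow animal had all members below their means, and its lowest mean deviation was -0.098.

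**Figure D2:**
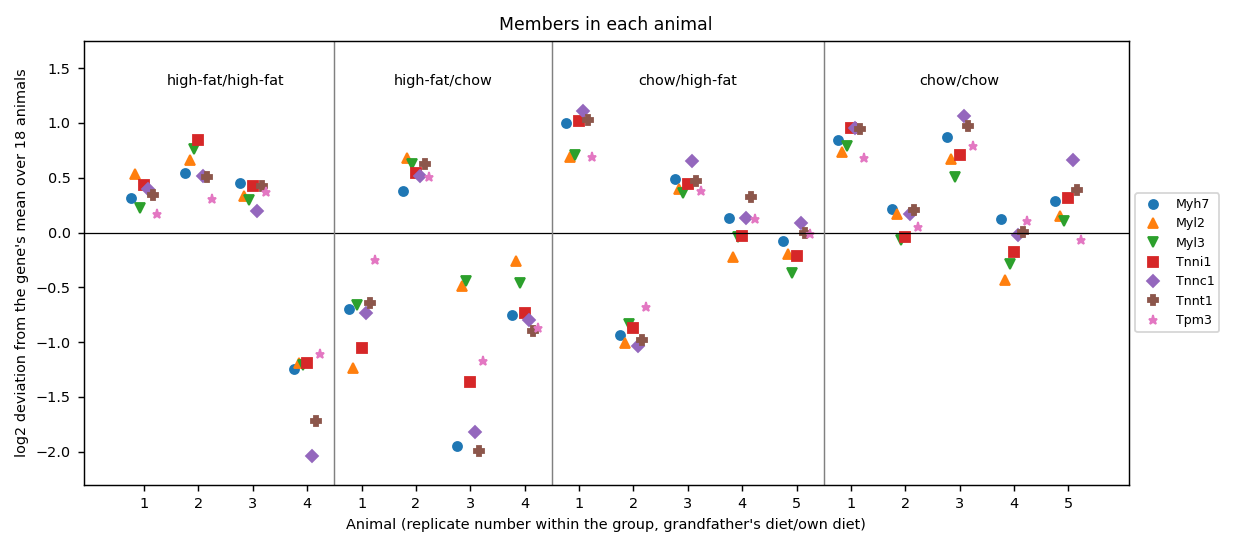
Deviation of each member from its own mean over 18 animals (log2, y axis) in every animal, ordered by group and replicate (x axis). Markers are genes. The 7 markers lie together in most animals, and the light chains Myl2 and Myl3 stand above the other members in high-fat/chow replicate 3.

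In 1 animal the mean of the light chains parted widely from that of the rest. In high-fat/chow replicate 3 the deviations were -1.95 for Myh7, -1.99 for Tnnt1, -1.82 for Tnnc1, -1.36 for Tnni1 and -1.17 for Tpm3. Those of Myl2 and Myl3 were -0.48 and -0.44. There the mean of the light chains stood 1.20 log2 above the mean of the other 5 members. In the other animals that difference lay between -0.36 (chow/chow replicate 4) and 0.45 (high-fat/chow replicate 4). High-fat/high-fat replicate 4, also low in every member, had a difference of 0.26. These means hide a spread between members in high-fat/chow replicate 1. There Myl2 was at -1.23 and Myl3 at -0.66, with Tnni1 at -1.06 and Tpm3 at -0.25.

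The spread between animals of a group set these genes apart from most of the array. The within-group SD of Myh7 was 0.73 log2, larger than in all but 24 of the 12749 genes tested. It was 0.87 for Tnnc1, which 7 genes exceeded, and 0.58 for Tpm3, which 53 exceeded. The median over all genes was 0.136, and the 95th percentile was 0.270. Such a spread was not particular to the members: Atp2a2 and Casq2, described below, had SDs of 0.68 and 0.66. By group, the median SD over the members was 0.86 log2 in high-fat/high-fat, 0.84 in high-fat/chow, 0.71 in chow/high-fat and 0.44 in chow/chow females. Over all genes that median was 0.123, 0.134, 0.132 and 0.110 in the same groups. Differences in spread between groups were not tested.

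**Figure D3:**
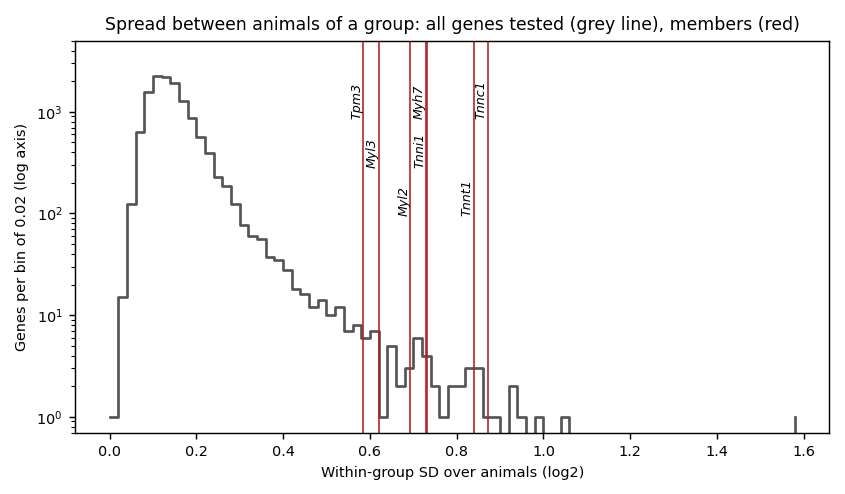
Number of genes (y axis, log scale) by within-group SD over animals (x axis, log2, bins of 0.02), for all genes tested (grey line; empty bins are drawn at the bottom of the axis). Red lines mark the 7 members, from 0.58 (Tpm3) to 0.87 (Tnnc1), far to the right of the median gene at 0.136.

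Among females that had eaten chow themselves, granddaughters of high-fat-fed males had lower mean levels of all 7 slow sarcomere genes (50.5% of all genes had a difference below 0), and none of these differences passed the test. Myh7 averaged 10.02 ± 0.95 log2 in high-fat/chow females and 11.24 ± 0.36 in chow/chow females (SD, n = 4 and 5). The difference was -1.22 (SE 0.42, 95% confidence interval -2.10 to -0.34, limma adjusted p = 0.464), or 0.428 times the level. All 4 high-fat/chow animals lay below the chow/chow mean, and 1 of them overlapped the chow/chow range. Groups that did not overlap, with high-fat/chow lower, were found for 0 of 7 members and 1.74% of all genes. For Myh7 alone, the two-sided exact permutation test over animals gave p = 0.0635, 0.254 after adjustment over 4 comparisons, where 0.0159 is the smallest p that 4 against 5 animals allow. The troponins differed by -1.23 (Tnnt1, SE 0.48), -1.27 (Tnnc1, SE 0.50) and -1.005 (Tnni1, SE 0.42), at adjusted p = 0.490, 0.491 and 0.535. Tpm3 differed by -0.76 (SE 0.34), Myl2 by -0.58 (SE 0.40) and Myl3 by -0.44 (SE 0.36), so the light chains had the smallest differences of the 7. The second Tpm3 probe set went the other way, with means of 8.63 log2 in high-fat/chow and 8.49 in chow/chow females.

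In this comparison 0 of 7 members passed, against 0.00784% of all genes (1 gene). At an unadjusted p under 0.05, 5 of 7 members were lower, against 8.72% of all genes in either direction and 4.41% lower. The members vary together, so these 5 are not separate observations. The median over the members was -1.005 log2, and over all genes -0.0018. High-fat/chow replicate 3 carries much of this: without it 0 members had an unadjusted p under 0.05, the median over the members was -0.77 and the Myh7 difference was -0.83. The count was 3 without chow/chow replicates 1 or 3, 3 without high-fat/chow replicate 4 and 3 with trended and robust eBayes. It was 6 without high-fat/chow replicate 2, where the median over the members was -1.40 and the Myh7 difference -1.60. Within well columns of the titles, whose meaning the labels do not give, Myh7 differed by -1.18 in column 5 (2 against 3 animals), -1.56 in column 7 and -1.04 in column 9 (1 against 1 each). Some whole wells recur between the lineages and none within a lineage, so arrays of a shared column need not have been run together. The well of high-fat/chow replicate 2 carries a suffix that the labels do not explain.

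Between granddaughters that had both eaten the high-fat diet, the slow sarcomere genes had no shared direction of difference by the grandfather's diet. Myh7 averaged 10.79 ± 0.85 log2 in high-fat/high-fat females and 10.90 ± 0.72 in chow/high-fat females (SD, n = 4 and 5), a difference of -0.11 (95% confidence interval -0.99 to 0.77, limma adjusted p = 0.939). Of the members 4 were lower and 3 higher, between -0.42 (Tnnc1) and 0.15 (Myl2), and 0 of 7 passed, as did 0% of all genes. At an unadjusted p under 0.05 there were 0 members, against 13.2% of all genes. The median of -0.11 became 0.32 without high-fat/high-fat replicate 4 and 0.11 without chow/high-fat replicate 1, so its sign rests on single animals. Without chow/high-fat replicate 2 it was -0.36, without replicate 3 of that group -0.013, and leaving out replicates 1, 2 and 3 of the high-fat/high-fat group in turn gave -0.20, -0.28 and -0.25. The exact permutation p for Myh7 was 0.857 here. In column 7 Myh7 differed by -1.07 (1 against 3 animals), and in column 5 by -0.11 (1 against 2). Here too, arrays of a shared column need not have been run together.

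For the females' own high-fat diet, the differences had opposite signs in the lineages and passed the test in neither. In granddaughters of high-fat-fed males Myh7 averaged 10.79 ± 0.85 log2 in high-fat/high-fat females and 10.02 ± 0.95 in high-fat/chow females (SD, n = 4 each). The difference of 0.77 (SE 0.44, 95% confidence interval -0.15 to 1.70) had limma adjusted p = 0.644. All 7 members were higher (49.6% of all genes), from 0.25 (Myl3) to 0.78 (Tnni1), with a median of 0.48. The second Tpm3 probe set was lower, with means of 8.41 log2 in high-fat/high-fat and 8.63 in high-fat/chow females. No member passed (0% of all genes), and 0 had an unadjusted p under 0.05 (9.21% of all genes). The median was 1.08 without high-fat/high-fat replicate 4, 0.88 without high-fat/chow replicate 2 and 0.20 without high-fat/chow replicate 3. Leaving out high-fat/high-fat replicate 2 gave 0.26, and leaving out replicate 1 of that group gave 0.30. The array weights gave 0.78 and the deposited array median as a covariate 0.90. The direction of Myh7 was not the same in every well column: 1.24 in column 5 (1 against 2 animals) and 1.19 in column 9 (2 against 1), but -0.55 in column 7 (1 against 1).

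In granddaughters of chow-fed males Myh7 averaged 10.90 ± 0.72 log2 in chow/high-fat females and 11.24 ± 0.36 in chow/chow females (SD, n = 5 each). The difference was -0.35 (SE 0.40, 95% confidence interval -1.17 to 0.48, limma adjusted p = 0.999). All 7 members were lower (51.4% of all genes), from -0.38 (Tnnc1) to -0.21 (Tpm3), with a median of -0.33. None passed (0% of all genes), and 0 had an unadjusted p under 0.05 (4.79% of all genes). Chow/high-fat replicate 2 carries most of the median, which was -0.051 in its absence. The value was -0.52 without chow/high-fat replicate 1, -0.21 and -0.22 without chow/chow replicates 1 and 3, -0.091 with the well column as a block and -0.66 once the array median was a covariate. Within well columns Myh7 differed by 0.17 in column 5 (2 against 3 animals) and -1.04 in column 7 (3 against 1), so the direction was not shared here either. Exact permutation p-values for Myh7 were 0.314 for the own diet in the high-fat lineage and 0.405 in the chow lineage.

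The interaction sets these own-diet differences against each other, as the difference in the high-fat lineage minus that in the chow lineage. For Myh7 it was 1.12 log2 (SE 0.59, 95% confidence interval -0.13 to 2.36, limma adjusted p = 0.742). The other members lay between 0.50 (Myl3) and 1.06 (Tnni1), all above 0, as were 51.1% of all genes. Of 7 members 0 passed, as did 0% of all genes, and 0 had an unadjusted p under 0.05, against 6.79% of all genes. The median over the members was 0.86. It was 0.53 without high-fat/chow replicate 3, 0.55 without chow/high-fat replicate 2 or with the well column as a block, 1.46 without high-fat/high-fat replicate 4 and 1.68 with the array median as a covariate. The 5 comparisons share animals, so their values for the members are not independent of each other.

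**Figure D4:**
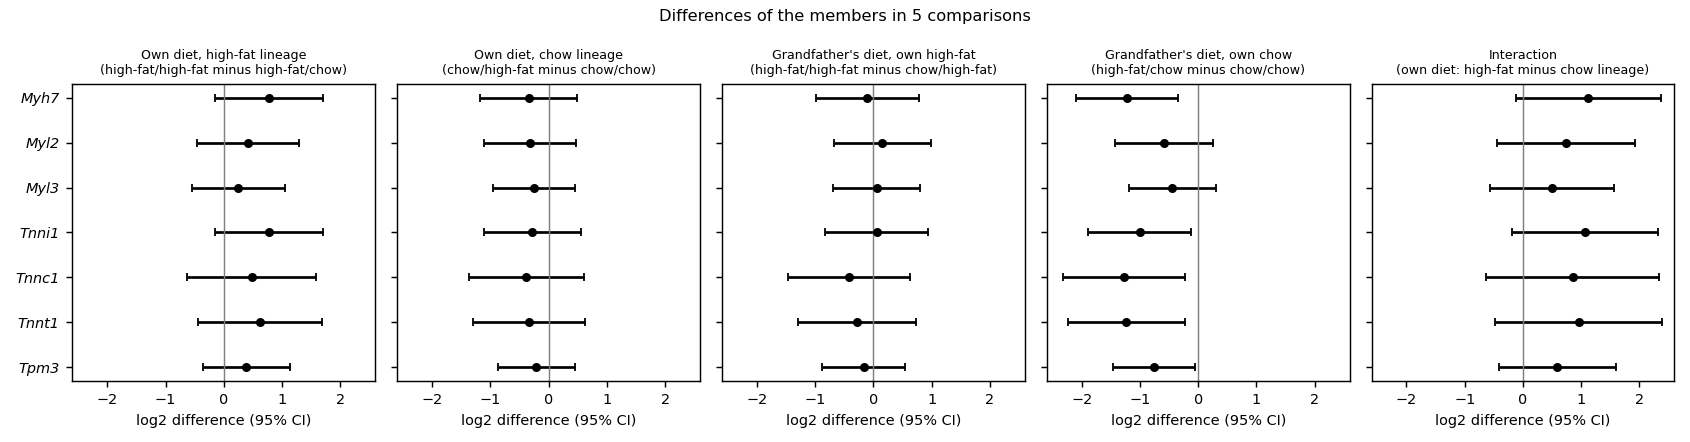
Difference of group means (log2, x axis) with its 95% confidence interval for each member (y axis) in the 5 comparisons, named above each panel with the direction of subtraction. For 5 members the interval of the grandfather's diet at own chow lies below 0 before adjustment, and the other intervals all include 0.

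Animal numbers in the titles pair some chow-fed and high-fat-fed females of a lineage as neighbours, 3 or fewer apart, and the labels do not say what the numbers mean. Among 5 such pairs of the chow lineage, Myh7 had intensities of 901 in the high-fat-fed and 2205 in the chow-fed female of the widest pair. The log2 difference in Myh7 was -1.15, -0.38, -0.36, 0.0098 and 0.15 over these pairs. Among 3 pairs of the high-fat lineage it was 1.24, 0.71 and 0.075. For Myh7, 3 of 5 high-fat-fed females were below their chow-fed neighbour in the chow lineage, and 0 of 3 in the high-fat lineage. The members together were less uniform. In the high-fat lineage, the pair with a Myh7 difference of 0.075 had 6 of 7 members below (median -0.20), the pair at 0.71 had 3 below and 4 above (median 0.066), and the pair at 1.24 had all 7 above (median 1.25). In the chow lineage, 7 members were below in the pairs at -1.15 and -0.38, 6 in the pair at -0.36, 2 in the pair at 0.15 and 0 in the pair at 0.0098.

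Over animals of the same group, the members rose and fell together. Values were centred on group means, and animals were shuffled within groups in 100000 resamples, two-sided, with adjustment over 6 relations. Myh7 correlated with Tnnt1 at Pearson's r = 0.992 and Spearman's rho = 0.990 over 18 animals (each permutation p = 1e-05, the smallest these resamples can give, adjusted 1.5e-05). For Tnnc1 r was 0.976 and rho 0.955, for Tpm3 0.960 and 0.955, and for Tnni1 0.954 and 0.932, with the same p-values. The light chains were looser, at r = 0.886 and rho = 0.895 for Myl3 (p = 0.00012 and 1e-04, adjusted 0.000144 and 0.00012) and r = 0.837 and rho = 0.860 for Myl2 (p = 0.00133 and 2e-04, adjusted by the same values). Without the 2 animals farthest from the median of Myh7, high-fat/chow replicate 3 and high-fat/high-fat replicate 4, r was 0.955 for Myl3 and 0.896 for Myl2, and between 0.940 and 0.987 for the others. Within groups and well columns, over the 12 arrays that share both with another, r lay between 0.897 (Myl3) and 0.996 (Tpm3). All points share 1 normalization.

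**Figure D5:**
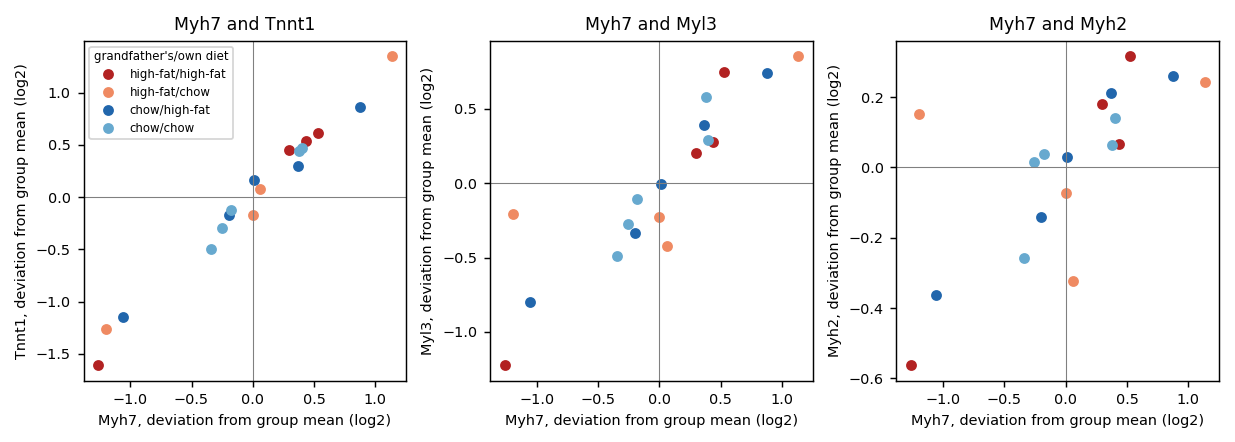
Deviation from the group mean (log2) of Tnnt1, Myl3 and Myh2 (y axes) against that of Myh7 (x axes), 1 point per animal, coloured by grandfather's/own diet. Tnnt1 follows Myh7 nearly on a line. Myl3 follows it more loosely, with 1 high-fat/chow animal above the rest and another below, and Myh2 moves over a narrower range.

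Among 12748 other genes, those most like Myh7 after group centring began with Tnnt1, Atp2a2 and Tnnc1. This is a description, with no p, since the genes were taken for their likeness. In all, 6 genes had r of 0.9 or more, of which 4 were members. The other two were Atp2a2, the slow calcium pump of the sarcoplasmic reticulum (r = 0.988, rho = 0.986), and Myh6 (r = 0.974, rho = 0.948). Myh6 encodes the alpha myosin heavy chain of the heart, is the protein-coding gene next to Myh7 and resembles it in sequence. How far its probe set also reads Myh7 transcripts was not tested. Casq2, the slow and cardiac calsequestrin, followed with r = 0.872 and rho = 0.917. Myl3 ranked before Casq2, and Myl2 ranked 11. With the members left out, the remaining 7 of the 10 most alike, ranked 9 to 16, were Ncf1 (0.856), a subunit of the phagocyte oxidase, Ptpn3 (0.843), Zbtb10 (0.829), Neurl4 (0.820), Wnt16 (0.815), Padi2 (0.813) and Klhdc10 (0.811). The 5 most opposite were Pyurf (-0.846), Tmem45b (-0.835), Fas (-0.831), a death receptor, Erlec1 (-0.827) and Tmem80 (-0.806). Over the array, 0.777% of genes had r of 0.7 or more and 0.510% of -0.7 or less. The second Tpm3 probe set had r = 0.714 and rho = 0.699.

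Fast counterparts of the members varied less between animals, and only Myh2 passed a test of its relation to Myh7, by ranks. Of 10 named, 7 were measured, and p-values were adjusted over these 7 relations. Myh2, the myosin of fast oxidative fibres, had r = 0.699 with Myh7 over 18 animals (permutation p = 0.012, adjusted p = 0.0841) and rho = 0.752 (permutation p = 0.00231, adjusted p = 0.0162). Its r was 0.880 without the 2 farthest animals, and its within-group SD was 0.267 log2. Tnnt3, the fast troponin T, had r = 0.162 (rho = -0.028) and an SD of 0.028. Its mean level stood at the 99.9 percentile of the genes tested, with deposited intensities from 6994 to 8750. How far a level near the top of the array and the normalization narrow such spreads was not tested. Tnni2, the fast troponin I, had r = -0.313 (rho = -0.488), and its r was -0.738 without the 2 farthest animals. Myl1, the fast essential light chain, had r = -0.386 (rho = -0.263). Tpm1 had r = -0.409 (rho = -0.424), Tpm2 -0.137 (rho = -0.048) and Tnnc2, the fast calcium sensor, 0.127 (rho = -0.027). For these 6 genes adjusted permutation p-values ran from 0.435 to 0.657 for r and from 0.241 to 0.928 for rho.

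Fast sarcomere genes and other slow-fibre genes are described here by their differences, and the lists were not tested against each other. Between high-fat/chow and chow/chow females the 12 measured fast sarcomere genes had a median difference of 0.0052 log2, 9 higher and 3 lower. Myh2 differed by -0.23 (SE 0.16) and Pvalb by 0.13 (SE 0.069). The 13 measured slow-fibre genes outside the sarcomere set had a median of -0.12, 3 higher and 10 lower (50.5% of all genes were lower), with Atp2a2 at -1.01 (SE 0.39, limma adjusted p = 0.484), Myoz2, a slow calcineurin-binding Z-disc protein, at -0.73 (SE 0.35) and Lmcd1 at -0.35 (SE 0.19). None of these lists had a member past the threshold. In the interaction the medians were -0.030 for the fast and 0.32 for the other slow-fibre genes, with Myoz2 at 0.95 (SE 0.50) and Ankrd2, a stretch-responsive Z-disc protein, at 0.82 (SE 0.42).

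Genes known to set the slow program were followed as a list of 31, of which 27 were measured. Between high-fat/chow and chow/chow females 22 were lower and 5 higher (50.5% of all genes were lower), with a median of -0.063 log2, and 0 passed. At an unadjusted p under 0.05 there were 7 of 27, all lower, against 4.41% of all genes lower and 8.72% in either direction. The list holds activators and repressors of slow genes as well as factors of fast fibres, so these counts give no direction of the slow program. The smallest p-values belonged to Vgll2, a Tead cofactor (-0.32, SE 0.095, adjusted p = 0.396), Ppard, a nuclear receptor for fatty acids (-0.25, SE 0.083, adjusted p = 0.442), and Tbx15, a T-box factor of fast fibres (-0.24, SE 0.096, adjusted p = 0.498). With the own high-fat diet in the high-fat lineage 24 of 27 were higher (49.6% of all genes), with a median of 0.11, led by Ppard (0.24, SE 0.088), Nfatc3, a target of calcineurin (0.27, SE 0.10), and Tbx15 (0.26, SE 0.10). At an unadjusted p under 0.05 there 4 were higher and 0 lower, against 9.21% of all genes in either direction. With the own diet in the chow lineage 12 were higher and 15 lower (median -0.0039). The grandfather's diet at own high-fat diet had 16 higher and 11 lower (median 0.034). In the interaction 23 were higher (51.1% of all genes) and 4 lower, with a median of 0.12. At an unadjusted p under 0.05, 6 were higher and 1 lower in the interaction, against 6.79% of all genes in either direction. None of the 27 passed in any of the 5 comparisons.

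Markers of other cells were read beside the comparison of high-fat/chow with chow/chow females. The summed intensity of 4 heart markers ran from 276 to 586 in high-fat/chow females and from 599 to 809 in chow/chow females. These ranges of deposited intensities did not overlap, but the sums were not normalized. The array of high-fat/chow replicate 2, the highest of its group in Myh6, had a median of 60.21. Chow/chow medians ran from 66.29 to 70.52. Whether the sums overlap after normalization was not tested. Most of that sum is Myh6, which differed by -0.81 (SE 0.28, limma adjusted p = 0.465). Myh6 alone overlapped, reaching 511 in high-fat/chow females and starting at 501 in chow/chow females. Of all single genes, 1.74% had high-fat/chow lower without overlap after normalization, and no such share was taken for sums of deposited intensities. Of the other heart markers, Tnni3 did not pass the filter on low values and Nppa had a mean of 5.26 log2, level with the filter. Tnnt2, the cardiac troponin T, passed the filter (mean 6.07 log2) and differed by 0.024 (SE 0.16), and Nppa by 0.016 (SE 0.091). The summed intensity of 3 spindle markers, which include Myh6, ran from 663 to 968 in high-fat/chow and from 1029 to 1149 in chow/chow females. These sums, also not normalized, did not overlap either. The other 2 spindle markers, Myh15 and Myh8, differed by 0.11 (SE 0.068 and 0.091), opposite in sign to Myh6. Median differences of the other lists lay between -0.097 (vessel wall) and 0.18 (red blood cell), with tendon at 0.092, fibroblast at 0.098, leukocyte at 0.13, fat cell at 0.049, nerve at -0.083 and endothelium at -0.038. Of their measured members 0 passed. Their part in the differences of the slow genes was not tested.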

How the data were processed

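RNA of 18 whole muscles was labelled and hybridized to Affymetrix whole-transcript arrays, per the labels' protocols. The deposited values are intensities on a linear scale for 20917 probe sets. They were made by the authors with Affymetrix Expression Console and PLIER, per the submitters' processing notes, and their versions, background correction, genome build and normalization settings are not given in the sources used here. For arrays, their number limits the precision.

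Symbols came from the probe table supplied with the series (18197 probe sets with 1 symbol, 960 with several, 1760 with none). Entrez identifiers of 18052 probe sets matched the RefSeq table of GRCr8, which changed 0 symbols. Array medians spanned 0.427 log2, above the limit of 0.1 set for leaving the table as it was, so log2(intensity + 16) was quantile normalized. Genes were kept with 1 probe set each, by highest mean, above the 25th percentile (5.26 log2). A group-means model of all 18 arrays was fitted with limma 3.58.1 (R 4.3.3) in 5 comparisons, two-sided. It was tested on simulated data. Permutation tests used scipy 1.17.1. No 2 arrays were copies of each other: among the 32 pairs within groups, log2 differences had an SD of 0.187 or more.

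The members and lists were chosen with earlier results of these data known. Genes named are the members, the 10 genes most like Myh7 and the 5 most opposite, the fast counterparts, and up to 3 genes of smallest p in a list. Alternatives were other offsets (1 and 64), filters, normalizations, probe sets and variance models, array weights, blocks and left-out arrays. The 2 arrays of lowest median and the array median as a covariate were added after seeing the data.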

Additional observations from a re-analysis of the deposited data

Results flagged for a closer look

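High-fat/high-fat replicate 4 lay far below the other 3 animals of its group for 4 of the 7 members. The gap to its nearest neighbour, as a share of the group's whole range, was 0.871 for Myh7, 0.873 for Tnnc1, 0.928 for Tnnt1 and 0.865 for Tpm3, against a Dixon critical value of 0.829 for 4 animals. Its normalized level was 9.53 log2 for Myh7, 7.21 for Tnnc1, 8.18 for Tnnt1 and 9.25 for Tpm3. Of 28 combinations of gene and group examined, 4 stood out, and chance alone marks about 1 in 20. The 4 genes vary together, so this is 1 animal seen 4 times. Its array had the highest deposited median of all, 73.97. The part of the array in this gap was not tested.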

How the results depend on the processing

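No member passed the threshold in any comparison under any alternative run. The sign of every member held under all of them for the own diet in either lineage, the grandfather's diet at own chow and the interaction. No alternative took the second Tpm3 probe set alone as the member. The sign turned for the grandfather's diet at own high-fat diet, where the main values were near 0. There Myh7 was 0.085 and Tpm3 0.037 in the table as deposited. With the well column as a block Myl2 was -0.14, Myl3 -0.16 and Tnni1 -0.22. Without the 2 arrays of lowest median Myl3 was -0.056 and Tnni1 -0.069. With the array median as a covariate Myh7 was 0.58, Tnnc1 0.41, Tnnt1 0.64 and Tpm3 0.47, and the median of the members in the interaction was 1.68. Leaving out each animal gave ranges of -0.37 to 0.32 for Myh7, -0.080 to 0.58 for Myl2, -0.19 to 0.46 for Myl3, -0.18 to 0.50 for Tnni1, -0.72 to 0.18 for Tnnc1, -0.56 to 0.26 for Tnnt1 and -0.36 to 0.18 for Tpm3. The cause was not tested.

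Genes called over the whole array moved as follows. For the grandfather's diet at own chow (1 in the main setting) the count was 0 as deposited, with offsets of 1 and 64, with the well column as a block and with the array median as a covariate, 2 with all probe sets and with the 2 groups alone, and 0 to 2 with each animal left out. For the grandfather's diet at own high-fat diet (0) it was 1680 as deposited, 1 with offset 1, 13 with all probe sets, 4 with the mean of a gene's probe sets, and 0 to 56 with each animal left out. The own diet in the chow lineage gave 1 and the interaction 1 as deposited, and the own diet in the high-fat lineage 0 to 1 with each animal left out. Correlations of Myh7 with the members kept their call in every alternative, with r from 0.767 to 0.996. The interaction was not run on 2 groups alone, as it needs 4. The labels give no replicate numbers shared between groups. Neighbouring animal numbers as a random block (correlation 0.125) changed no call of a member.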

Other observations

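Genes that muscle uses in development or after damage, and genes of the sarcomere's frame, did not pass the threshold in any comparison. Of 12 developmental genes 10 were measured. Their medians were 0.0045 log2 between high-fat/high-fat and chow/high-fat females, -0.060 between high-fat/chow and chow/chow females and 0.083 in the interaction. Chrna1, the alpha subunit of the muscle acetylcholine receptor, differed by 0.52 (SE 0.22, limma adjusted p = 0.697) in the interaction, and Ncam1, an adhesion molecule of denervated fibres, by 0.50 (SE 0.24). Myog, a myogenic factor, differed by -0.32 (SE 0.21) between high-fat/chow and chow/chow females, and Myh8, the perinatal myosin, by 0.11 (SE 0.091). Of 15 frame genes 12 were measured, with medians between -0.022 and 0.012 over the 5 comparisons. Lmod2, which elongates thin filaments, differed by -0.47 (SE 0.31) between high-fat/chow and chow/chow females and Capzb, a capping subunit, by 0.17 (SE 0.072, adjusted p = 0.537).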
